A study of Homo sapiens with 12 samples.

Results

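The genes described here are 10 genes of iron and haem handling, a set given by name and chosen with earlier results of these data known. They are the ferritin chains FTH1 and FTL, the iron transporters TFRC, SLC11A2 and SLC40A1, the iron sensor IREB2, and the haem breakdown enzymes HMOX1, HMOX2, BLVRA and BLVRB. All 10 were matched by symbol to the 54127 Ensembl genes counted, and all 10 were among the 14505 genes tested. RNAseq measured their transcripts in C4-2 cells, an androgen-responsive prostate cancer epithelial line derived from LNCaP, grown in RPMI with 10% FBS. Cells received the vehicle DMSO or 1 µM of PBKi (TOPK32, also named HI-TOPK-032), an inhibitor of the kinase PBK, for 6 h. Each group held 6 libraries, and the comparison asks how inhibition of PBK changed the transcriptome. The design used 1 cell line, 1 dose and 1 time, and the labels do not say that the libraries came from separate cultures, so p-values measure the spread between these libraries, which may be technical.

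Depth was 9663203 to 28029908 reads on genes per library. On the leading components of all genes, DMSO replicate 5, the shallowest library, lay apart from the rest, at -27.6 on the second component against -9.87 to 17.1 for the other 11 libraries. In both groups, replicates 1 to 3 were above 0 on this component and replicates 4 to 6 below 0, and the labels give no batch, so values within each set are given where they bear on a call. Luminal prostate markers (KRT8, KRT18, EPCAM, KLK3, FOLH1 and HOXB13) were all present. Their summed level was 3833 to 4394 CPM (read counts scaled by library size to 1000000 reads, with TMM factors) in DMSO and 1875 to 2629 CPM in PBKi. KLK3 carried most of this difference, at 2677 to 3145 CPM in DMSO and 696 to 1360 CPM in PBKi. HOXB13 was also lower in every PBKi library (166 to 229 against 264 to 343 CPM). FOLH1 was higher in PBKi (595 to 699.5 against 461 to 547 CPM), and KRT8, KRT18 and EPCAM overlapped. Lists of other cells that handle iron stayed low in both groups. The 9 macrophage markers summed to 5.68 to 7.45 CPM in DMSO and 7.89 to 10.9 CPM in PBKi, with PTPRC at no more than 0.150 CPM and C1QB at 0 in all 12 libraries. Most of these sums came from CD68 and CD163. CD68 was at 2.43 to 4.39 CPM in DMSO and 4.50 to 6.07 CPM in PBKi, without overlap. CD163 was at 1.39 to 3.61 and 1.73 to 4.07 CPM, with overlap. The 7 erythroid markers summed to 17.7 to 22.7 CPM in DMSO and 17.5 to 19.9 CPM in PBKi, nearly all from EPOR, and HBA2 and HBB were at 0. The 6 fibroblast markers summed to 21.2 to 26.1 CPM in DMSO and 19.3 to 24.8 CPM in PBKi. The part of the small macrophage difference in the values below was not tested.

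Cells take up iron bound to transferrin through the transferrin receptor, store what is not needed inside a shell of ferritin heavy and light chains, and export iron through ferroportin. Iron regulatory proteins read the iron level and bind hairpins called iron-responsive elements (IREs) in the untranslated regions of messenger RNAs: binding in front of the coding sequence blocks translation of the ferritins and ferroportin, and binding behind it stabilises the transferrin receptor message. Haem oxygenase opens the haem ring and releases its iron, carbon monoxide and biliverdin, which biliverdin reductase turns into bilirubin. Genes of both branches, the ferritins and haem oxygenase 1 among them, are textbook targets of the transcription factor NRF2 and its opponent BACH1, which act on antioxidant response elements.

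The hairpins are shown because they are the known docking sites of the iron regulatory proteins in transcripts of this set. They were found as an unpaired C, 5 stem bases, the loop CAGTGN and 5 bases pairing with the stem, in untranslated regions of GENCODE transcripts on GRCh37, on the transcript's own strand. Loop letters are in capitals, and each line runs 5′ to 3′.
FTL 5′ region, chr19:49468592-49468620, plus strand: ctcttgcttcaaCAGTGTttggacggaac
SLC40A1 5′ region, chr2:190445387-190445415, minus strand: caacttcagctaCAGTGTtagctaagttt
TFRC 3′ region, chr3:195777850-195777878, minus strand: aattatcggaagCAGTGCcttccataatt
TFRC 3′ region, chr3:195777446-195777474, minus strand: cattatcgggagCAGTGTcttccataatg
TFRC 3′ region, chr3:195777381-195777409, minus strand: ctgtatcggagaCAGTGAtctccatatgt
TFRC 3′ region, chr3:195777334-195777362, minus strand: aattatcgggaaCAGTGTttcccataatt
FTL, SLC40A1 and, at chr11:61735046-61735074 on the minus strand, FTH1 held a match in the 5′ untranslated region, and TFRC held 4 in the 3′ untranslated region. The other 6 genes held no match, which says only that these letters were not found. Of 19833 genes with a protein-coding transcript, 180 (0.908%) held such a match in an untranslated region.

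Of the 10 genes, 7 were upregulated by PBKi, 1 was downregulated and 2 were not called by edgeR's quasi-likelihood test at an adjusted p of 0.05. Of all tested genes, 20.1% were called upregulated and 21.5% downregulated. The median log2 fold change was 0.47 over the 10 genes and -0.01 over all tested genes. As the 10 genes were chosen with earlier results of these data known, these comparisons are no independent evidence of a direction. In 5 genes (FTH1, FTL, TFRC, HMOX1 and BLVRB) every PBKi library lay above every DMSO library, as in 10.5% of all tested genes. In 1 gene (IREB2) every PBKi library lay below every DMSO library, as in 9.68% of all tested genes. In bulk RNA, a change in the number of cells that express a gene and a change in RNA per cell cannot be told apart.

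**Figure D1:**
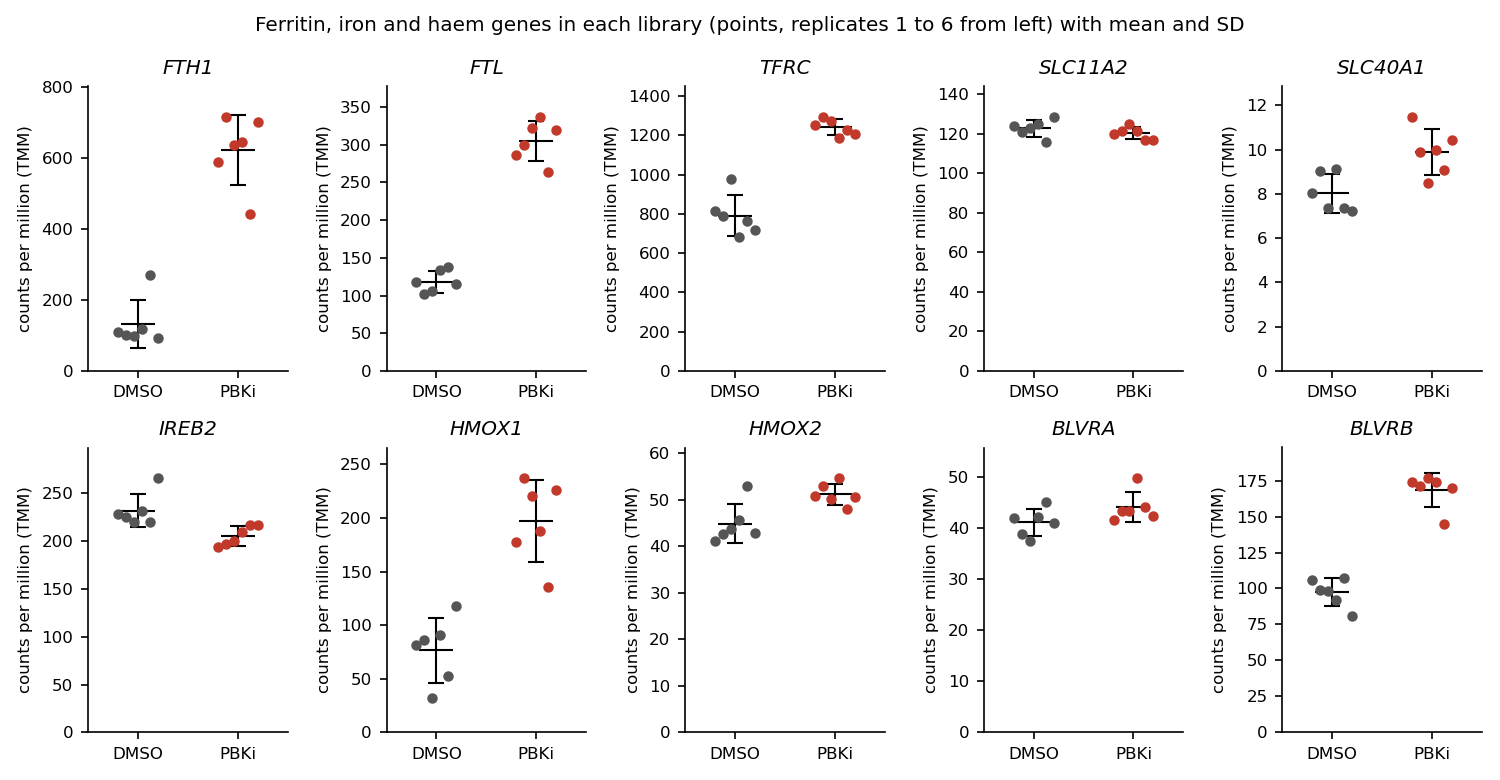
Normalised read counts (CPM after TMM scaling, linear axes from 0) of the 10 genes in each of the 6 DMSO and 6 PBKi libraries (points, replicates 1 to 6 from left), with mean and SD (bars). FTH1, FTL, TFRC, HMOX1 and BLVRB show no overlap between groups, and DMSO replicate 5 stands above the other DMSO libraries in FTH1 at 269.8 CPM.

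The ferritin genes rose, and FTH1 had the largest fold change of the 10 genes. FTH1, the ferritin heavy chain, which oxidises iron as it enters the shell (chr11:61727190-61735106, minus strand), was at 110.4, 99.8, 98.3, 117.6, 269.8 and 93.4 CPM in DMSO replicates 1 to 6. In PBKi replicates 1 to 6 it was at 588, 716, 635.5, 645, 442 and 701 CPM. All DMSO libraries but replicate 5 lay close together, and the lowest PBKi library was still above that replicate. The means were 131.6 ± 68.3 and 621 ± 99.1 CPM (SD, n = 6 each), 4.75-fold apart (log2 fold change 2.25, SE 0.22, adjusted p = 3.52e-07 with edgeR). Without DMSO replicate 5, the log2 fold change was 2.58 (SE 0.11).

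FTL, the ferritin light chain, which helps the iron core form (chr19:49468566-49470136, plus strand), ranged from 101.9 to 137.5 CPM in DMSO with a median of 116. It ranged from 264 to 337.5 CPM in PBKi with a median of 309. No library of either group lay between 137.5 and 264 CPM. PBKi over DMSO was 1.37 on the log2 scale (SE 0.08, adjusted p = 4.80e-10 with edgeR, 2.58-fold).

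The ferritin genes have many processed pseudogenes, copies without introns whose sequence is close to the parent message, so reads that fit several copies can be lost or misplaced. Of 25 annotated FTH1 pseudogenes, 19 had any read and 10 were expressed highly enough to be tested. All 10 were upregulated, with log2 fold changes from 1.97 to 2.59, close to that of FTH1, whose reads they may share. The filter of 10 counts in 6 libraries can be met by the 6 PBKi libraries alone. A pseudogene with few reads in DMSO could pass only by being high in PBKi, so the count of 10 rises was partly set by the filter. FTH1P1, the lowest of the 10, averaged 0.141 CPM in DMSO and 0.843 CPM in PBKi. The highest, FTH1P7, went from 3.00 to 15.0 CPM (log2 fold change 2.33, SE 0.12, adjusted p = 1.09e-10 with edgeR). Summed over the 25 pseudogenes, DMSO libraries held 6.82 to 10.2 CPM and PBKi libraries 29.6 to 46.2 CPM. These sums were 2.84% to 9.88% of the combined FTH1 and pseudogene counts in DMSO and 5.72% to 6.64% in PBKi. The lowest share was that of DMSO replicate 5, whose pseudogenes stood at 7.90 CPM, inside the range of the other DMSO libraries, while its FTH1 did not. Of 12 FTL pseudogenes, 6 had any read and none reached the count filter, with 1 to 10 reads in all per library. Adding the pseudogene counts to the parents gave log2 fold changes of 2.26 for FTH1 and 1.38 for FTL.

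FTH1 also shares 1267 exonic bases with BEST1, a chloride channel gene on the opposite strand, and whether the counting used strand is not given in the sources used here. BEST1 rose from 8.87 to 14.3 CPM in DMSO to 22.9 to 39.7 CPM in PBKi (log2 fold change 1.30, SE 0.15, adjusted p = 1.99e-06 with edgeR), and the reads of the pair cannot be told apart without strand. In DMSO replicate 5, BEST1 was at 8.87 CPM, the lowest of all libraries. The high FTH1 value of that library was present in each of its 3 lanes, at 254.7 to 264.3 CPM before TMM scaling, against 88.6 to 122.6 in the 20 lanes of the other DMSO libraries.

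**Figure D2:**
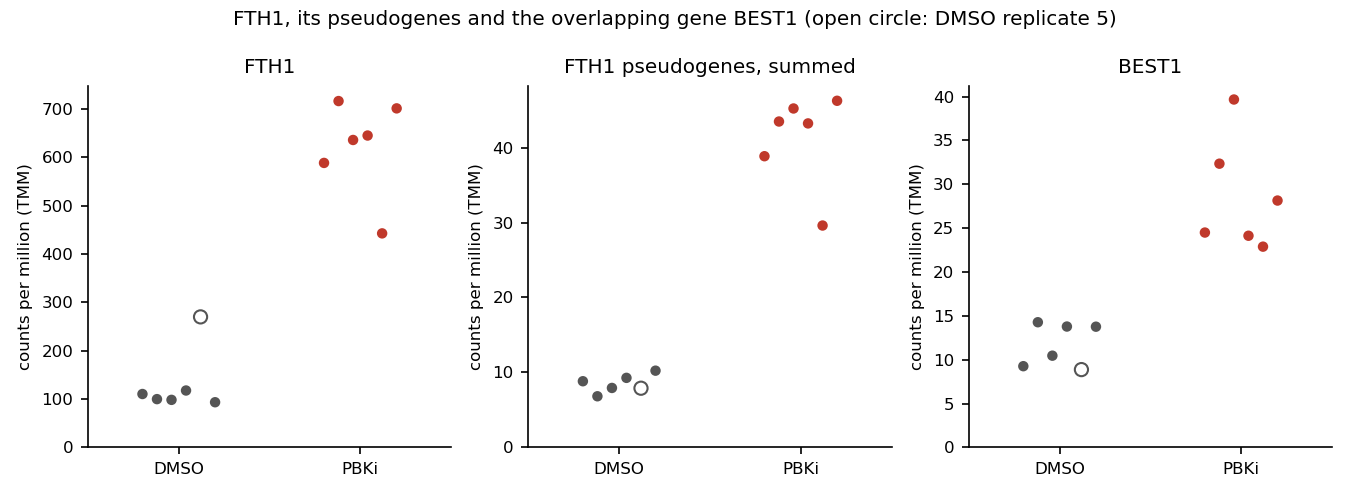
Normalised read counts (CPM, linear axes from 0) of FTH1, of its 25 annotated pseudogenes summed and of BEST1, which overlaps it on the opposite strand, in 6 DMSO and 6 PBKi libraries (points; the open circle is DMSO replicate 5). DMSO replicate 5 is high for FTH1 at 269.8 CPM and within or below the other DMSO libraries for the pseudogenes (7.90 CPM) and BEST1 (8.87 CPM).

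Of the iron transporters, the uptake receptor rose most. TFRC, the transferrin receptor (chr3:195739382-195809024, minus strand), ranged from 684 to 981 CPM in DMSO with a median of 776. It ranged from 1190 to 1297 CPM in PBKi with a median of 1239. The PBKi libraries were the tighter group, with an SD of 41.0 CPM against 104 in DMSO, and the groups did not overlap. TFRC rose by 0.65 on the log2 scale (SE 0.07, adjusted p = 1.56e-06 with edgeR, 1.57-fold). The transcripts of the storage proteins and of the uptake receptor thus rose in the same libraries.

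SLC40A1, which encodes ferroportin, the only known exporter of iron from cells (chr2:190425316-190448484, minus strand), was the lowest of the 10 genes, with 68 to 224 reads per library. It ranged from 7.22 to 9.14 CPM in DMSO with a median of 7.71. It ranged from 8.475 to 11.5 CPM in PBKi with a median of 9.94. In PBKi, 4 of 6 libraries exceeded all DMSO libraries. The rise was small (log2 fold change 0.29, SE 0.09, adjusted p = 0.0175 with edgeR). It was not called within replicates 1 to 3 (0.30, adjusted p = 0.0761 with edgeR) or within replicates 4 to 6 (0.30, adjusted p = 0.152 with edgeR), where the size was alike and the groups held 3 libraries each.

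SLC11A2, the divalent metal transporter that moves iron across the endosomal and gut membranes (chr12:51373184-51422349, minus strand), ranged from 116 to 129 CPM in DMSO and from 117 to 125 CPM in PBKi. All PBKi libraries lay inside the range of DMSO, with a log2 fold change of -0.03 (SE 0.04, adjusted p = 0.595 with edgeR), with an interval of 2 SE from -0.12 to 0.056.

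IREB2, which encodes iron regulatory protein 2, an RNA-binding protein degraded when iron is plentiful (chr15:78729773-78793795, plus strand), was the downregulated gene. It ranged from 219.5 to 266 CPM in DMSO with a median of 227. It ranged from 194 to 217 CPM in PBKi with a median of 205. The groups did not overlap, but only a few CPM separated the highest PBKi from the lowest DMSO library, and DMSO replicate 6 lay above the rest of its group at 266 CPM. The log2 fold change was -0.17 (SE 0.06, adjusted p = 0.0179 with edgeR). Without DMSO replicate 6 it was -0.12 (adjusted p = 0.0570 with edgeR), and within replicates 4 to 6 it was -0.16 (adjusted p = 0.214 with edgeR), neither of which was called. The partner iron regulatory protein gene ACO1 was at 66.8 ± 2.69 CPM in DMSO and 67.6 ± 4.36 CPM in PBKi (SD, n = 6 each), with a log2 fold change of 0.02 (adjusted p = 0.808 with edgeR). FBXL5, the ubiquitin ligase subunit that removes iron regulatory proteins, was at 72.7 ± 6.11 and 75.0 ± 4.07 CPM (log2 fold change 0.04, adjusted p = 0.605 with edgeR). ACO1 and FBXL5 are named for their place beside IREB2, after their values were seen.

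In haem breakdown, the inducible oxygenase and the reductase BLVRB rose, with smaller log2 fold changes in their partner enzymes HMOX2 and BLVRA. HMOX1, the inducible haem oxygenase (chr22:35776354-35790207, plus strand), was at 81.5, 86.0, 32.1, 90.5, 52.3 and 117 CPM in DMSO replicates 1 to 6. In PBKi replicates 1 to 6 it was at 177, 237, 220.4, 188, 135 and 227 CPM. HMOX1 was among the most variable of the 10 genes in DMSO, with replicates 3 and 5 low, yet every PBKi library lay above the highest DMSO library. Group means were 76.7 ± 30.2 and 197 ± 38.3 CPM (SD, n = 6 each), which is 1.37 on the log2 scale (SE 0.22, adjusted p = 8.97e-05 with edgeR). Without DMSO replicate 3, it was 1.21.

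HMOX2, the constitutive haem oxygenase (chr16:4524691-4560348, plus strand), ranged from 41.2 to 53.0 CPM in DMSO with a median of 43.3. It ranged from 47.9 to 54.7 CPM in PBKi with a median of 50.7. Only 1 PBKi library exceeded all DMSO libraries, of which replicate 5 was the highest. The log2 fold change was 0.19 (SE 0.06, adjusted p = 0.0163 with edgeR). Within replicates 4 to 6 it was 0.12 (adjusted p = 0.425 with edgeR) and was not called. HMOX2 shares 103 exonic bases with NMRAL1 on the opposite strand, which had a log2 fold change of 0.03 (adjusted p = 0.707 with edgeR).

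BLVRB, a flavin and biliverdin reductase (chr19:40953672-40971671, minus strand), ranged from 80.7 to 107 CPM in DMSO with a median of 98.9. It ranged from 144.5 to 177 CPM in PBKi with a median of 173. Replicate 5 was the lowest of the PBKi libraries and still lay above all of DMSO. The log2 fold change was 0.79 (SE 0.07, adjusted p = 8.48e-08 with edgeR, 1.73-fold). BLVRA, the main biliverdin reductase of adult tissue (chr7:43798279-43846941, plus strand), ranged from 37.6 to 45.1 CPM in DMSO and from 41.6 to 49.9 CPM in PBKi. PBKi replicate 4 lay above all DMSO libraries and DMSO replicates 2, 3 and 6 lay below all PBKi libraries, with the rest overlapping, and the log2 fold change was 0.11 (SE 0.06, adjusted p = 0.163 with edgeR), with an interval of 2 SE from -0.013 to 0.23.

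An exact two-sided permutation test of each gene's mean log2 CPM over the 12 libraries gave p = 0.00216, the smallest it can give, for FTH1, FTL, TFRC, HMOX1, BLVRB and IREB2. The same exact permutation test gave p = 0.0108 for SLC40A1, 0.0152 for HMOX2, 0.0952 for BLVRA and 0.249 for SLC11A2.

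**Figure D3:**
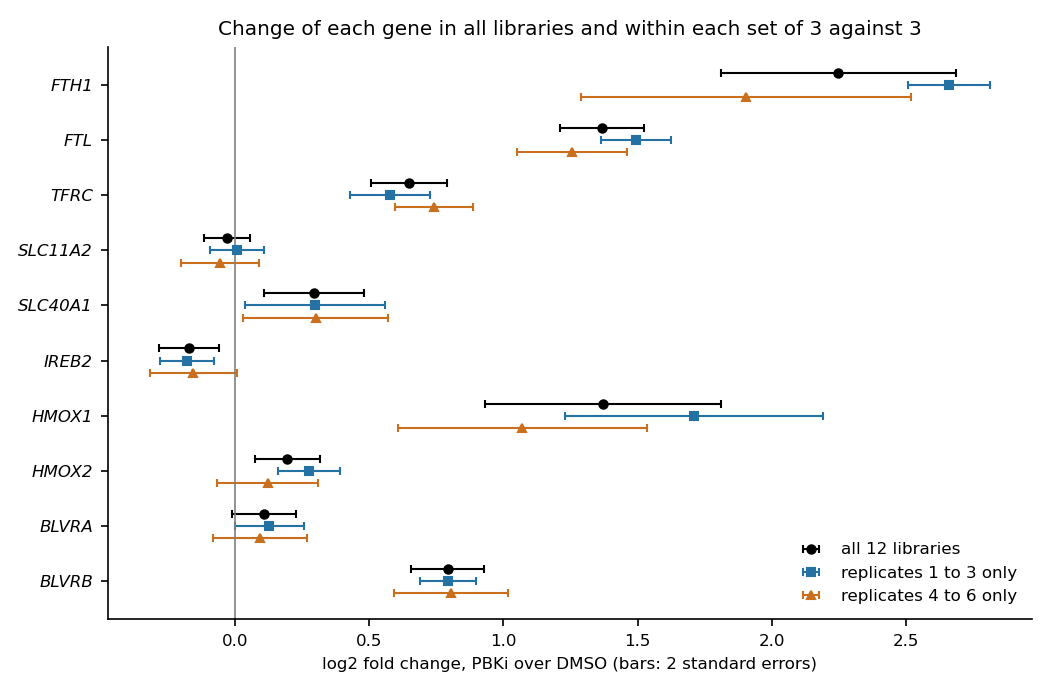
The log2 fold change of each gene, PBKi over DMSO, with 2 standard errors either side, in all 12 libraries (circles), within replicates 1 to 3 (squares) and within replicates 4 to 6 (triangles). FTH1, FTL, TFRC, HMOX1 and BLVRB lie above 0 in all 3 fits, and SLC11A2 and BLVRA have intervals that reach 0 in all 12 libraries.

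The 5 genes in which all PBKi libraries lay above all DMSO libraries were called within both sets of replicates, and IREB2, with all PBKi libraries below, only within replicates 1 to 3. FTH1 had a log2 fold change of 2.66 within replicates 1 to 3 and of 1.90 within replicates 4 to 6, the set that holds DMSO replicate 5. For HMOX1 the values were 1.71 and 1.07, and for FTL they were 1.49 and 1.26. TFRC went the other way at 0.58 and 0.74, and BLVRB was alike at 0.79 and 0.80. The difference between the sets was not tested.

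Divided by the length of the canonical transcript, levels could be set side by side across genes. In DMSO the order of the mean level was TFRC (158 CPM per kb), FTL (136), BLVRB (122), FTH1 (109), HMOX1 (49.3), BLVRA (38.3), IREB2 (36.6), SLC11A2 (29.7), HMOX2 (26.8) and SLC40A1 (2.41). Of these neighbours, only FTH1 and HMOX1, IREB2 and SLC11A2, and HMOX2 and SLC40A1 had ranges over libraries that did not overlap. In PBKi the order was FTH1 (516 CPM per kb), FTL (349.9), TFRC (248), BLVRB (211), HMOX1 (127), BLVRA (41.1), IREB2 (32.5), HMOX2 (30.6), SLC11A2 (29.1) and SLC40A1 (2.97). Here ranges overlapped only between FTH1 and FTL, IREB2 and HMOX2, and HMOX2 and SLC11A2. The levels of FTH1 and FTL per length are uncertain, since reads shared with their pseudogenes, or for FTH1 with BEST1, may be missing. In DMSO replicate 5, FTH1 already lay above TFRC.

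Ratios of read counts within a library do not depend on the scaling between libraries, and they are given without a test. Those with a ferritin may lack reads shared with pseudogenes. The FTL to FTH1 ratio was 0.510 to 1.23 in DMSO (median 1.07) and 0.419 to 0.596 in PBKi (median 0.497), and the groups overlapped only through DMSO replicate 5 at 0.510. The TFRC to FTH1 ratio was 2.84 to 9.97 in DMSO (median 7.54) and 1.72 to 2.77 in PBKi (median 1.93). The HMOX1 to HMOX2 ratio was 0.735 to 2.74 in DMSO (median 1.98) and 2.82 to 4.49 in PBKi (median 3.95). The BLVRB to BLVRA ratio was 1.96 to 2.62 in DMSO (median 2.45) and 3.27 to 4.19 in PBKi (median 3.98). In the last 3 ratios no PBKi library overlapped DMSO, narrowly so for TFRC to FTH1 and for HMOX1 to HMOX2.

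**Figure D4:**
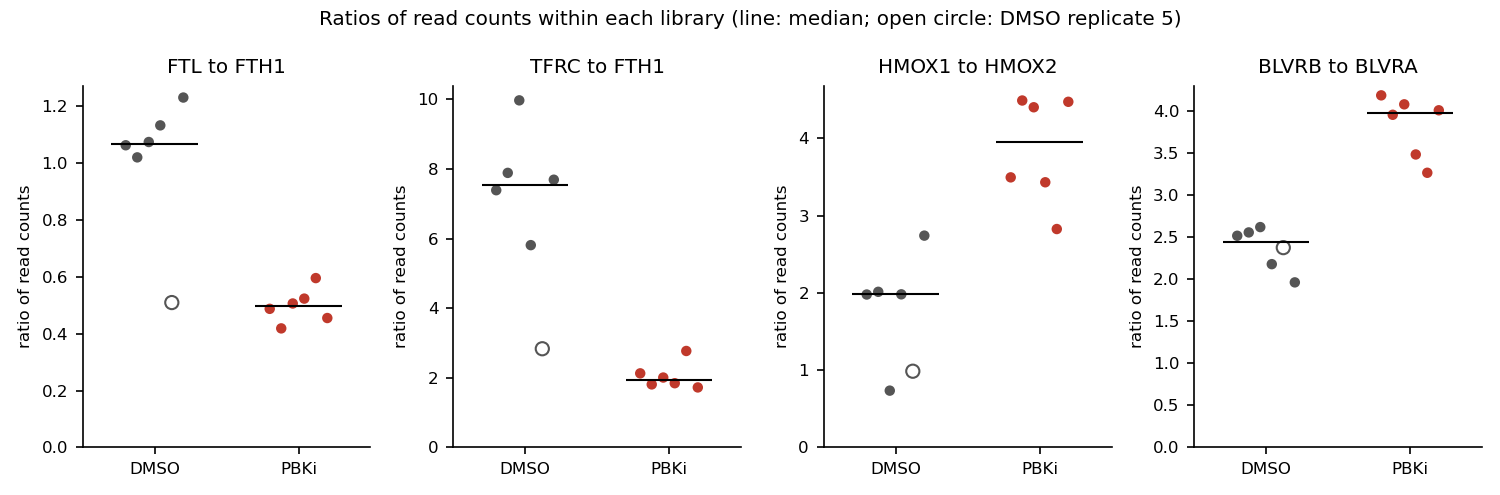
Ratios of read counts of 4 gene pairs within each library (points; line, median; open circle, DMSO replicate 5), on linear axes from 0. The 2 ratios over FTH1 are lower in PBKi apart from the overlap of DMSO replicate 5 in FTL to FTH1, and HMOX1 to HMOX2 and BLVRB to BLVRA are higher in every PBKi library.

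Other genes of the iron and haem pathways moved in both directions. Over 5 lists of further genes, 88 of 90 symbols were matched and 78 tested. Of these, 12 (15.4%) were upregulated and 25 (32.1%) downregulated, with a median log2 fold change of -0.04. Over all tested genes, the shares called were 20.1% and 21.5%. In iron transport and storage, 3 of 15 tested genes rose (20.0%) and 4 fell (26.7%), near the shares over all tested genes. HEPH, a copper-dependent iron oxidase, rose from 0.295 to 1.01 CPM (log2 fold change 1.94, SE 0.32), a very low level. The prion protein gene PRNP, counted here for its reported ferrireductase activity, rose by 0.38, and the lysosomal channel gene MCOLN1 rose by 0.23, both on the log2 scale. MCOLN1 was just under the threshold (SE 0.09, adjusted p = 0.0496 with edgeR), and its groups overlapped. The count of 3 rises was 2 to 4 when each library was left out and 1 with lanes 6 to 8. STEAP4, a metalloreductase, fell from 1.30 to 0.519 CPM (log2 fold change -1.26, SE 0.20). It could likewise pass the filter through its DMSO libraries alone. SLC39A8, which carries zinc, manganese and iron into cells, fell from 309 ± 11.7 to 201 ± 15.2 CPM (SD, n = 6 each; log2 fold change -0.62, SE 0.05). STEAP3, the endosomal ferrireductase that works beside the transferrin receptor, fell from 65.1 ± 7.74 to 46.7 ± 5.63 CPM (log2 fold change -0.47, SE 0.08).

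In iron sensing and regulation, 2 of 12 tested genes rose (16.7%), against 20.1% of all tested genes, of which 21.5% fell. None of the list was called lower by edgeR or DESeq2 in all libraries. At an unadjusted p of 0.05, both gave 1 lower gene. A fall was called in 1 gene by limma-voom and by edgeR with no low-count filter, without DMSO replicate 1 or without PBKi replicate 4. HFE, which binds the transferrin receptor, rose from 11.3 to 14.6 CPM (log2 fold change 0.35, SE 0.08), and ZFP36, an RNA-decay factor that acts on transferrin receptor mRNA, rose from 7.78 to 9.46 CPM (log2 fold change 0.29, SE 0.09). Neither was called within replicates 4 to 6, where edgeR called 0 genes of this list upregulated and 2 were higher at an unadjusted p of 0.05.

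In haem synthesis, 2 of 11 tested genes rose (18.2%) and 4 fell (36.4%), against 20.1% and 21.5% of all tested genes. The rises were at the ends of the pathway. ALAS1, the rate-limiting enzyme, rose from 73.7 ± 2.69 to 106 ± 2.25 CPM (log2 fold change 0.52, SE 0.04), and FECH, which inserts the iron, rose from 256 ± 13.7 to 358 ± 9.44 CPM (log2 fold change 0.48, SE 0.05). Groups did not overlap in either gene. PPOX (log2 fold change -0.48, SE 0.08) and CPOX (log2 fold change -0.40, SE 0.07), the enzymes between, fell, as did CLPX, a mitochondrial unfoldase that activates and turns over ALAS1 (log2 fold change -0.22, SE 0.05).

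In haem transport and binding, 3 of 14 tested genes rose (21.4%) and 4 fell (28.6%), near the shares over all tested genes. SLC48A1, a haem transporter of endosomes and lysosomes, rose from 25.7 ± 1.76 to 53.4 ± 3.84 CPM (log2 fold change 1.06, SE 0.06). FLVCR2, first described as a haem importer, rose from 5.00 to 9.26 CPM (log2 fold change 0.89, SE 0.10), and ABCB6, a porphyrin transporter, from 8.65 to 12.2 CPM (log2 fold change 0.50, SE 0.10). HPX, the haem-binding plasma protein hemopexin, fell at a very low level (log2 fold change -0.98, SE 0.28), with HEBP2 (-0.35) and PGRMC1 (-0.19) falling less.

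In iron-sulphur cluster assembly, 2 of 26 tested genes rose and 13 fell, with a median log2 fold change of -0.19. Within replicates 1 to 3, 14 genes of this list were downregulated and within replicates 4 to 6 only 1. Over all genes, the downregulated counts of these fits were 3187 and 1207, so calls were fewer in replicates 4 to 6 in general. The falls were small: the largest were LYRM4 (-0.35, SE 0.07), a partner of the cysteine desulphurase, FDXR (-0.31, SE 0.08), the ferredoxin reductase, and CIAO2A (-0.31, SE 0.10), a cytosolic assembly factor. The scaffold gene ISCU (0.19) and the ferredoxin gene FDX1 (0.15, adjusted p = 0.0475 with edgeR) rose slightly. The count of 2 rises was 1 on leaving out each of 8 libraries in turn and 0 within replicates 4 to 6.

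All 7 tested genes of a small reference list of NRF2 and BACH1 biology rose (100%), against 20.1% of all tested genes. Their median log2 fold change was 0.74. The count was 6 with no low-count filter and within replicates 4 to 6, and 6 to 7 when each library was left out. The list holds regulators as well as targets. BACH1, the opponent of NRF2, rose by 0.74 on the log2 scale and KEAP1 by 0.53. NFE2L2, which encodes NRF2, rose least, by 0.13 (adjusted p = 0.0359 with edgeR). The largest rises were GCLM, the modifier subunit of glutathione synthesis (112.5 ± 7.58 to 378 ± 56.1 CPM, log2 fold change 1.75, SE 0.08), TXNRD1, thioredoxin reductase (620 ± 46.4 to 2024 ± 239 CPM, 1.71, SE 0.08), and NQO1, a quinone reductase (339 ± 27.1 to 899 ± 98.8 CPM, 1.41, SE 0.07). This list was chosen with earlier results of these libraries known and is no independent evidence of a direction.

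**Figure D5:**
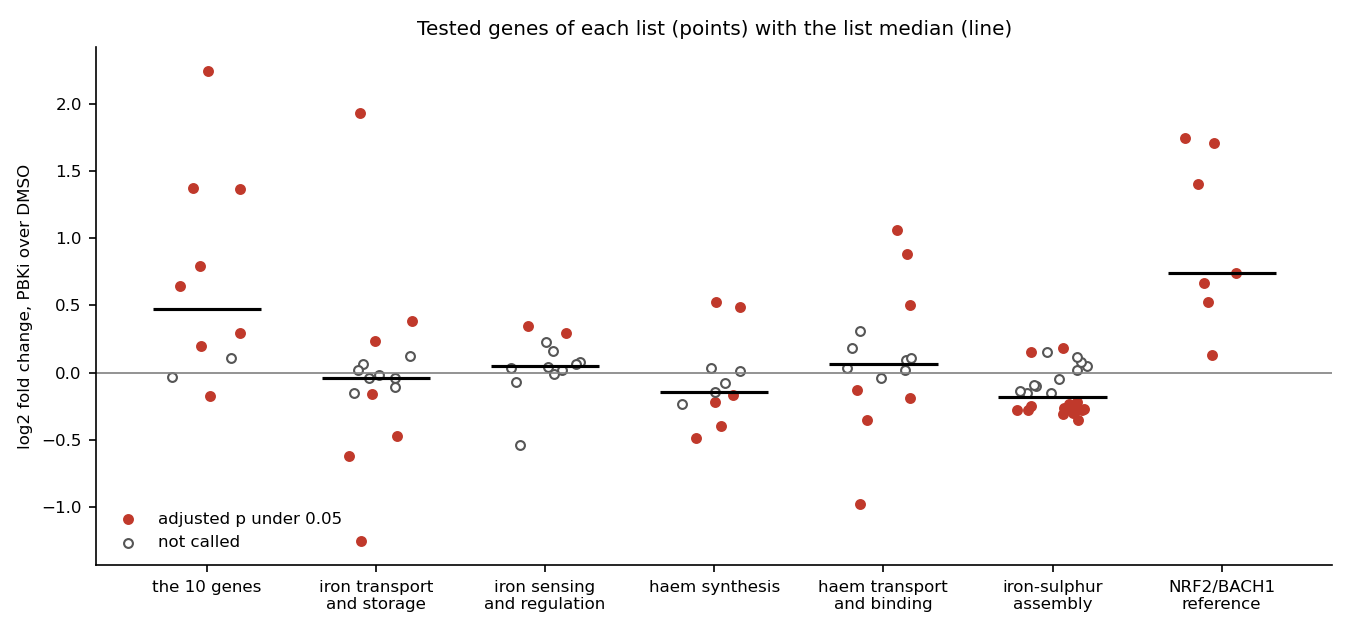
The log2 fold change, PBKi over DMSO, of every tested gene in each list (points, spread sideways only for legibility; filled, adjusted p under 0.05 with edgeR; open, not called) with the list's median (line). The 10 genes have a median of 0.47 and the 26 iron-sulphur assembly genes one of -0.19. The largest rise outside the 10 genes and the reference list is HEPH at 1.94, at a very low level where the count filter could be met by PBKi libraries alone.

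Since ferritin and haem oxygenase genes are textbook targets of antioxidant response elements, promoters were searched for TGACNNNGC on both strands, in windows from 250 bases before to 50 after the start in RefSeq on GRCh38.p14. Of the 10 genes, 8 had 13 windows in the table, and FTH1 and HMOX1 had none. None of the 13 windows held the letters, against 13.3% of all 35116 windows. This window leaves out more distant elements.

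The genes most like FTH1 were sought by correlating log2 CPM centred on the group means over the 12 libraries, among 9998 genes of at least 3 in mean log2 CPM, as a description. Among the 5 highest were CHPF (r = 0.965), QSOX1 (0.962), DHCR7 (0.955) and SSU72 (0.950). DMSO replicate 5 carried part of this likeness: without it these genes had r from 0.769 to 0.928. Of the other members, HMOX2 was most like FTH1 at 0.889 over all 12 libraries, then FTL at 0.726. Without DMSO replicate 5 the order changed, with FTL at 0.710, BLVRB at 0.628 and HMOX2 at 0.594. For IREB2 the 5 highest included ELK4 (0.959), PUM2 (0.955), XRN1 (0.950) and FAM199X (0.949), with r from 0.859 to 0.920 without DMSO replicate 6. The points share libraries, depth and scaling.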

How the data were processed

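RNAseq counts were available for 6 DMSO and 6 PBKi libraries. The authors sequenced TruSeq libraries as single-end 40-base reads, aligned them to GRCh37 with TopHat2 2.0.4 (Ensembl 64 annotation), and counted reads on genes with HTSeq 0.5.3p9; the deposited values are these raw counts, in 47 lane files. Their own testing used DESeq 1.10.1. HTSeq drops reads that align to several places: 26.7% to 29.3% of the records per library were so marked, 3.87% to 4.35% were ambiguous between genes and 5.74% to 9.30% fell on no gene, and none of these entered library sizes. The labels and the study's methods name different RNA kits, and the labels mention sorted cells.

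Lanes were summed per library. The chi-square of gene counts over its degrees of freedom was 0.993 to 1.02 between lanes of a library and 4.11 to 25.2 between replicates, so no library appeared to be deposited again under another number. Tested genes had 10 or more counts in 6 or more libraries. The test was run with edgeR 4.0.16 (R 4.3.3): TMM scaling, quasi-likelihood F-test, Benjamini-Hochberg adjusted p under 0.05 over all 14505 genes. Standard errors are the absolute log2 fold change over the square root of F. Depth gave at least 68 counts for each of the 10 genes in each library, and the small folds are limited by the spread between libraries. On simulated data of this depth (14349 genes), 97.0% of 99 genes changed by 1 on the log2 scale and 62.2% of 98 changed by 0.5 were recovered, and 5.42% of calls were false. Transcript lengths, overlaps and hairpins came from GENCODE 44 on GRCh37, newer than the annotation the counts used. The 10 genes and all lists were chosen with earlier results of these data known. From each list, the 3 largest called rises and falls were named, and the 5 genes most like the members with the largest rise and fall. NCOA4, FDX1L and SRXN1 matched no counted symbol.

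Alternatives were DESeq2 1.42.0, limma-voom (limma 3.58.1), DESeq2's type of size factors in edgeR, no low-count filter, a filter of 50 counts, lanes 6 to 8 only, a replicate block, either set of 3 replicates, pseudogene counts added to the ferritins, and leaving out each library. Counts of the pathway lists under these alternatives were added after the data were seen. Some genes of the marker lists and of the likeness search are not reported here.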

Additional observations from a re-analysis of the deposited data

Results flagged for a closer look

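In 4 of the 20 gene and group combinations, Dixon's criterion put 1 library apart from the other 5, where chance alone gives about 1 in 20. FTH1 in DMSO replicate 5 was at 269.8 CPM against 93.4 to 117.6 in the other DMSO libraries. BLVRA in PBKi replicate 4 was at 49.9 CPM against 41.6 to 44.2. BLVRB in PBKi replicate 5 was at 144.5 CPM against 170.0 to 177. IREB2 in DMSO replicate 6 was at 266 CPM against 219.5 to 231.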

How the results depend on the processing

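FTH1, FTL, TFRC, HMOX1 and BLVRB kept direction and call under all 22 alternatives. The 7 upregulated genes were 6 within replicates 1 to 3, 5 within replicates 4 to 6 and 7 in every fit without 1 library. The count of downregulated genes, 1 in all libraries (IREB2), was 0 with no low-count filter (adjusted p = 0.0528 with edgeR) and 0 within replicates 4 to 6, and 0 to 1 when each library was left out, 0 without DMSO replicate 6. SLC11A2, not called in any fit, changed sign to 0.0057 within replicates 1 to 3. Over all genes, replicates 4 to 6 gave 1273 upregulated and 1207 downregulated genes, against 2921 and 3125 in all libraries. Leaving out 1 library gave 2577 to 3342 upregulated and 2618 to 3216 downregulated genes. Of 252 list counts, 24 moved by more than 1.5 times, most of them counts of 0 to 4 genes.

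Replicate numbers were shared between groups. Deviations of same-numbered libraries from their group means correlated at 0.0887 to 0.299, and 8 of 12 libraries correlated best with their own number, a hint of pairing from the data. The labels do not say what a number marks and 1 of the 6 correlations was under 0.1, so the numbers were not treated as pairs in the values above. With the replicate block, 7 of the 10 genes were upregulated and 1 downregulated, and over all genes 3485 and 3803; in the iron sensing list, 4 were upregulated and 1 downregulated. The counts limit SLC40A1 most, at 68 to 224 reads per library.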

Other observations

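CP, the gene of the plasma ferroxidase ceruloplasmin, did not reach the count filter and was not tested. It had 1, 1, 1, 0, 0 and 0 reads in DMSO replicates 1 to 6 and 4, 26, 27, 25, 11 and 14 reads in PBKi replicates 1 to 6, which is at most 1.80 CPM. CP is named after its values were seen, beside HEPH, the related ferroxidase gene that was called upregulated from a similarly low level. HEPH could pass the count filter through its PBKi libraries alone, so the pair is no independent evidence of a direction.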
